A study of Medicago sativa with 9 samples.

Results

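Long non-coding RNAs (lncRNAs, here transcripts longer than 200 bases that the depositors predicted not to encode a protein) in leaves of alfalfa sprayed with selenite at 500 mg/L (high Se) were compared with those of control plants. A transcript entered the comparison when its mean over the 3 control and 3 high Se libraries was at least 0.5 FPKM, a deposited level in which fragments are divided by transcript length and library size. 43898 of the 64684 listed transcripts met this rule, or 67.9%. At the edge of the rule, MSTRG.34701.1 had a mean of 0.49999 FPKM and stayed out, and MSTRG.95354.1 had 0.50001 and entered.

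The plants were the cultivar Kangsai of Medicago sativa, grown in a field. They were sprayed 3 times at intervals of 7 days, from a plant height of 20 cm on. The labels name the control group CK and do not say what it was sprayed with. A low Se group, sprayed at 100 mg/L, helped to estimate the spread between libraries, and its values are given beside some transcripts. It is not stated whether the libraries within a group are separate plants, and p-values therefore reflect the spread among these libraries alone, which may be technical. The table lists no protein-coding gene, so the leaf label could not be checked against marker genes.

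Alfalfa is a tetraploid legume, and the deposited coordinates name each chromosome in 4 copies (1.1 to 8.4) beside numbered scaffolds. Plant roots and leaves take up selenite partly through phosphate transporters, and selenium then enters the sulfur assimilation pathway, where selenoamino acids can replace the sulfur ones and become toxic. Plant lncRNAs are known to act in several ways: some sequester a microRNA, as IPS1 does under phosphate starvation in Arabidopsis, some are antisense to a gene and alter its transcription, as COOLAIR does at the flowering gene FLC, and others are precursors of small RNAs. Most have no known role, and none of the transcripts below has a function given by the files. The host gene names of the table matched 0 identifiers of the gene table at hand, so host genes are named without a function.

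The members fell into 5 classes by position. Intergenic transcripts (class code u) made up 67.3% of them, transcripts within an intron (i) 23.0%, spliced transcripts that share a junction with an annotated gene (j) 4.53%, sense-overlapping ones (o) 2.96% and antisense ones (x) 2.25%. A single exon was recorded for 76.6%, and 66.2% were listed without a strand, so the strand these come from is not known here. Reads may be shared among homologous copies of a sequence or among paralogs, which leaves single transcripts uncertain.

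The 6 libraries held 1.44 to 2.97 gigabases of aligned sequence, as implied by the ratio of coverage to FPKM. Coverage times length was most often 282 bases, taken here as 1 read pair, from which read pairs per transcript were estimated. The median transcript above 0 had 4.43 to 8.37 read pairs per library, so most values rest on few molecules. Control 1 stood apart from its group: over the members its log2(FPKM + 0.1) values correlated at 0.209 and 0.21 (Pearson's r) with control 2 and control 3, and at 0.221 to 0.25 with the high Se libraries. Control 2 and control 3 correlated at 0.353 and the high Se libraries at 0.356 to 0.43 among themselves. These are descriptions across transcripts, which share the libraries' depth. Results without control 1 are given beside the counts below. A value of 0 can be a failure to sample a rare transcript, and in whole leaves fewer cells of a type and less RNA per cell cannot be told apart.

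More transcripts were found in the high Se libraries than in 2 of the 3 control libraries. The control libraries had 29116, 26184 and 23373 of the transcripts above 0, and the high Se libraries 28685, 30723 and 30095. Control 1 lay within the high Se range and the groups overlapped. The means were 26224 ± 2872 and 29834 ± 1044 (SD, n = 3 each), a difference of 3610 that did not pass an exact permutation test (p = 0.2, two-sided, where 0.1 is the smallest p that 3 against 3 can give). Control 3 had 2.78 gigabases and the fewest transcripts, while control 1 had 2.55 gigabases and control 2 had 1.44. The high Se libraries had 2.07, 2.97 and 2.49 gigabases, and within that group the counts rose with depth. Control 1 also held more than the shallower control 2, so control 3 was the exception within the groups. The part of depth in these counts was not tested. With detection set to at least 1 read pair at the depth of the shallowest library, the counts were 25508, 23000 and 20480 in control versus 25175, 26063 and 25904 at high Se, which overlapped in the same way. Without control 1 the difference was 4859, and without control 3 it was 2470.

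**Figure D1:**
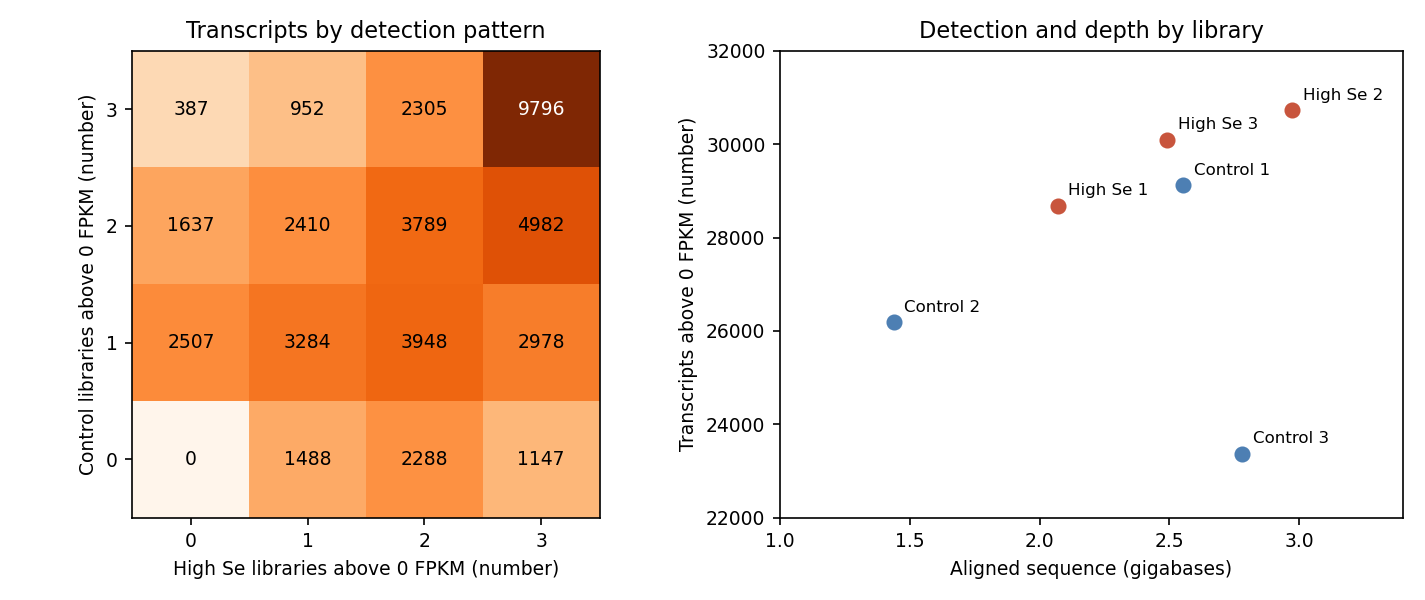
The left panel gives the number of transcripts by how many control (vertical axis) and high Se libraries (horizontal axis) held them above 0 FPKM, with darker cells for more transcripts. The right panel plots transcripts above 0 against aligned gigabases for the 6 libraries. Control 3 has 23373 transcripts at 2.78 gigabases, below all 3 high Se libraries, among which the number rises with depth.

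Presence and level were then described apart. 9796 transcripts, 22.3% of the members, were above 0 in all 6 libraries, and the other 34102 were listed at 0 in at least 1. Those found in all 6 carried 75.9% to 82.8% of the members' summed FPKM in each library. 16831 transcripts were found in more high Se than control libraries and 10198 in more control than high Se libraries. At the extremes, 1147 transcripts (2.61% of the members) were listed at 0 in every control library and above 0 in every high Se library, called newly detected here. The mirror group, present in every control library and listed at 0 in every high Se library, held 387 transcripts (0.882%) and is called no longer detected. Both groups were chosen by these values, so their sizes are a description with no test.

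Newly detected transcripts outnumbered no longer detected ones 2.96 to 1. That ratio rests on the same values as the number of transcripts found per library, whose difference did not pass (exact permutation p = 0.2). It is therefore not a separate result. The ratio was 2.53 with detection at 1 read pair at the shallowest depth (1087 against 430), 3.81 when each library had to hold at least 5 read pairs (225 against 59) and 2.9 when transcripts were summed by locus (1098 against 379). Control 3 moved it most: without that library 1650 transcripts were newly and 913 no longer detected, a ratio of 1.81. Without control 1 the counts were 2733 and 1113, and without high Se 1 they were 2076 and 657. Fewer libraries make each condition easier to meet, so the counts rise by construction.

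Newly detected transcripts were mostly faint. Their mean over the high Se libraries had a median of 1.85 FPKM, with quartiles of 1.43 and 2.62, and the weakest of the 3 libraries held a median of 2.17 read pairs. In 531 of them, 46.3%, the weakest library held under 2 read pairs. No longer detected transcripts had a median of 2.21 FPKM in control and 1.74 read pairs in the weakest library, with 57.4% under 2. Among the 3 libraries that held a transcript, the highest value was at most 3 times the lowest for 35.4% of the newly and 28.2% of the no longer detected ones.

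By class, intergenic transcripts made up 70.3% of the newly detected and 76.2% of the no longer detected, against 67.3% of all members. Intronic transcripts made up 20.7% and 16.3%, against 23.0%. Antisense transcripts numbered 33 newly and 9 no longer detected of 987 members. Sense-overlapping ones numbered 36 and 6 of 1301, the highest ratio of the 5 classes at 6 to 1, and junction-sharing ones 35 and 14 of 1988, the lowest at 2.5 to 1. In every class the newly detected were the more numerous, but the classes share the same libraries. With at least 5 read pairs required in each library, antisense transcripts numbered 14 newly and 0 no longer detected, and sense-overlapping ones 9 and 1.

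**Figure D2:**
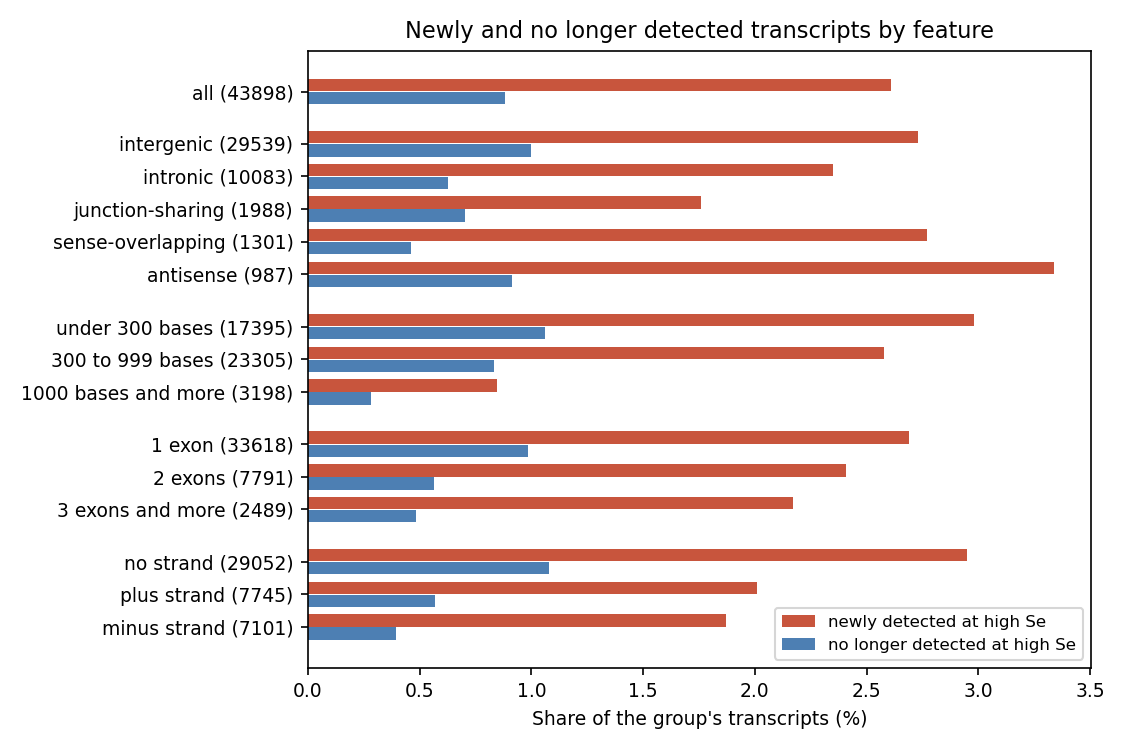
Bars give the share of each group's transcripts that were newly (red) or no longer (blue) detected at high Se, with the number of transcripts of the group in parentheses; there is no error bar because each is 1 count. Newly detected transcripts exceed no longer detected ones in every group, from 0.844% against 0.281% at 1000 bases and more to 3.34% against 0.912% among antisense transcripts. With at least 5 read pairs required, the order by length is reversed (33 of 17395 under 300 bases against 18 of 3198 at 1000 bases and more). That rule asks a higher FPKM of shorter transcripts. All groups share the same libraries, so their directions are not independent.

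At the main detection rule, transcripts found in 1 group were shorter and more often unspliced or strandless than those found everywhere. The median length was 319 bases for the newly and 306 for the no longer detected, against 346 for all members and 546 for those found in all 6 libraries. Of the transcripts of 1000 bases or more, 59.9% were found in all 6 libraries, 0.844% were newly and 0.281% no longer detected. Of those under 300 bases, 9.66% were found in all 6, 2.98% newly and 1.06% no longer detected. A longer transcript yields more fragments at the same FPKM, and the part of this sampling in the difference was not tested. Transcripts without a strand made up 74.8% of the newly and 81.4% of the no longer detected, but 44.0% of those found in all 6. Single-exon transcripts made up 78.9%, 85.5% and 70.6% of the same groups. Transcripts of 3 or more exons were newly detected in 54 cases and no longer detected in 12. A rule of at least 5 read pairs asks a higher FPKM of a shorter transcript, so a shift towards longer ones is built into it. It was not applied to all members or to those found in all 6 libraries. With at least 5 read pairs required in each library, 33 of 17395 transcripts under 300 bases and 18 of 3198 of 1000 bases or more were newly detected, so the order by length turned around. Transcripts under 300 bases then made up 14.7% of the newly and 18.6% of the no longer detected, near the 17.2% of those found in all 6. Single-exon transcripts then made up 69.3% and 79.7%, and strandless ones 66.2% and 79.7%, the latter still above the share found in all 6.

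Newly detected transcripts outnumbered no longer detected ones on all 32 chromosomes, and on 31 of them with at least 5 read pairs required, the exception being chromosome 5.1 with 1 newly and 5 no longer detected. All chromosomes share the same 6 libraries, so their like direction is not independent evidence. The newly detected share of a chromosome's members ran from 1.82% on chromosome 2.1 (20 of 1100) to 4.16% on chromosome 4.1 (56 of 1345), with a median of 2.65%. For no longer detected transcripts it ran from 0.454% on chromosome 6.3 (6 of 1322) to 1.34% on chromosome 7.1 (17 of 1273). The 4 copies of the genome had like shares of newly detected transcripts, 2.68%, 2.74%, 2.60% and 2.66% in copies 1 to 4. Unplaced scaffolds had 1.53% newly and 0.585% no longer detected among 2223 members, and 38.1% of their members were found in all 6 libraries.

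Detection within each class was compared library by library. Of the 1301 sense-overlapping members, control held 75.7%, 69.2% and 61.5% above 0 and high Se 77.3%, 83.2% and 82.2%. Of the 987 antisense members, control held 70.0%, 66.7% and 60.0% and high Se 75.4%, 80.2% and 76.3%. In both classes every high Se library lay above every control library. Intergenic, intronic and junction-sharing members overlapped between the groups, with control 1 inside the high Se range. Sense-overlapping transcripts took 18.2%, 17.8% and 17.3% of the members' FPKM in control versus 19.05%, 20.6% and 22.3% at high Se. The antisense share of FPKM overlapped, with 37.7%, 29.0% and 28.9% in control versus 32.0%, 32.5% and 26.1% at high Se. In each of these libraries 10 transcripts held 50% to 61.6% of all listed FPKM, so such shares can rest on few transcripts. In all, 69 such comparisons by class, length, exons, strand and chromosome number were made, 10 did not overlap, and the exact permutation p of 0.1 for these became 0.431 after Benjamini-Hochberg adjustment, so none passed.

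**Figure D3:**
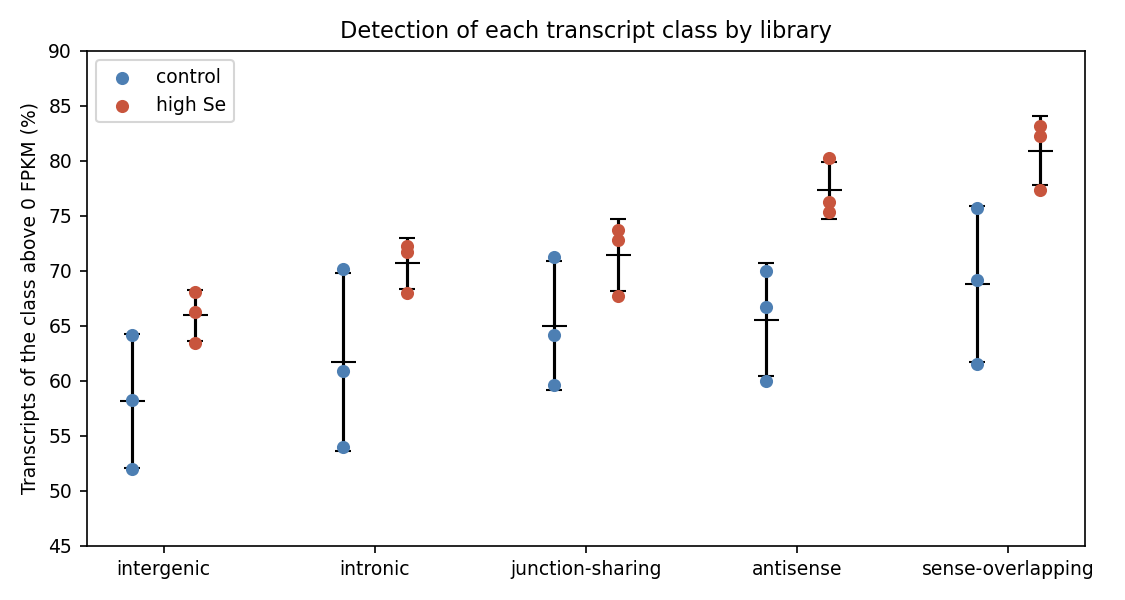
Points give the percentage of each class's transcripts above 0 FPKM in each library, control in blue and high Se in red, with the mean and SD of 3 libraries as black bars; the vertical axis starts at 45%. The groups separate for antisense and sense-overlapping transcripts and overlap for the other 3 classes.

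The low Se libraries, which played no part in choosing these groups, held 42.4%, 45.6% and 36.0% of the newly detected transcripts above 0. They held 38%, 35.1% and 28.4% of the no longer detected ones and 54.3%, 57.5% and 49.9% of all members. 151 newly detected transcripts (13.2%) were above 0 in all 3 low Se libraries and 316 (27.6%) in none. Of the no longer detected, 33 (8.53%) were in all 3 and 140 (36.2%) in none.

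Most members belonged to a locus with a single listed form: 3728 of 43898 (8.49%) had another form listed. Of the 1147 newly detected transcripts 74 had one, and at 45 of these 74 some form of the locus was above 0 in control. Of the 387 no longer detected 13 had one, and at 7 of these 13 some form was above 0 in high Se. 341 newly detected transcripts had a host gene, spread over 330 hosts, of which 10 held more than 1. The 92 no longer detected ones with a host had 92 different hosts.

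The host with the most newly detected transcripts was MS.gene45098, with 3 antisense forms of the locus MSTRG.98746 on the minus strand of chromosome 5.3. All start at position 24063304 in the deposited coordinates, and the longest, MSTRG.98746.1 with 8 exons, ends at 24069326. MSTRG.98746.1 had 2.20, 3.62 and 6.03 FPKM in high Se and 1.42, 11.7 and 5.28 in low Se. MSTRG.98746.3, with 3 exons, had 3.74, 2.31 and 3.35 in high Se and 4.32, 7.66 and 3.08 in low Se. MSTRG.98746.2, with 5 exons, had 6.27, 1.29 and 1.64 in high Se and 0, 0.219 and 6.72 in low Se. Each was listed at 0 in all 3 control libraries, and the weakest high Se library of MSTRG.98746.1 and MSTRG.98746.3 held 15.4 and 15.7 read pairs. None passed the test described below, with limma adjusted p of 0.154, 0.415 and 0.145 for forms 1, 2 and 3.

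The host MS.gene76127 held 2 newly detected intronic forms, MSTRG.118470.1 and MSTRG.118470.2, spliced and on the minus strand of chromosome 6.4 from 53825605. MSTRG.118470.1 had 0.704, 2.66 and 2.72 FPKM in high Se, and MSTRG.118470.2 had 0.671, 2.21 and 1.71. Both were also above 0 in every low Se library. Since no host held more than 1 no longer detected transcript, those with the smallest p are given. They were the intronic MSTRG.139482.1 in MS.gene58730, with 2.27, 6.75 and 5.45 FPKM in control, and MSTRG.13434.1 in MS.gene46408, with 9.06, 9.97 and 4.24. MSTRG.139482.1 was above 0 in every low Se library (1.02, 2.86 and 0.683 FPKM), and MSTRG.13434.1 only in low Se 1 (0.792).

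Neighbouring newly detected transcripts, at most 10 kb apart, formed 44 runs that held 94 of the 1147 transcripts. The longest run had 4 single-exon intergenic transcripts within 7192 bases of chromosome 3.3, from 36325985 to 36333176. Its outer members, MSTRG.56697.1 and MSTRG.56701.1, were each 983 bases long. MSTRG.56697.1 had 1.95, 0.822 and 1.2 FPKM in high Se, and MSTRG.56701.1 had 2.37, 1.01 and 1.11, so the pair had the same order of libraries. Between them, MSTRG.56698.1 had 1.2, 0.59 and 1.70 FPKM, highest in high Se 3, and MSTRG.56699.1 had 1.79, 5.14 and 0.876, highest in high Se 2. All 4 were above 0 in low Se 2 and low Se 3. Whether the equal lengths reflect a repeated sequence was not tested, as no genome of this build was used here. The second run was the MSTRG.98746 locus.

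No longer detected transcripts formed 14 runs with 29 transcripts. The longest held 3 single-exon intergenic transcripts on chromosome 1.1 between 24984998 and 24994783. MSTRG.7265.1 had 3.25, 4.62 and 3.68 FPKM in control, MSTRG.7266.1 had 1.77, 5.03 and 6.15 and MSTRG.7270.1 had 3.04, 0.848 and 5.40. None of the 3 was above 0 in any selenite library, low Se included. The next run, on chromosome 7.2 between 69719019 and 69725634, held MSTRG.127733.1 with 5.10, 3.52 and 3.74 FPKM in control and MSTRG.127735.1 with 6.93, 3.91 and 5.40. MSTRG.127735.1 was at 0 in all low Se libraries, and MSTRG.127733.1 had 1.41 FPKM in low Se 1 alone.

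A test of single transcripts was then made with limma on log2(FPKM + 0.1), over all 43898 transcripts and all 9 libraries. High Se differed from control in 10 transcripts, 0.0228% of those tested, at an adjusted p below 0.05. 8 rose (0.0182%) and 2 fell (0.00456%). At an unadjusted p below 0.05 there were 4359, or 9.93%. Groups that did not overlap were seen for 3429 transcripts with higher (7.81%) and 1773 with lower (4.04%) values in high Se.

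Of the 8 that rose, 5 were newly detected. Among these, MSTRG.75431.2, an intergenic transcript of 2 exons and 1132 bases on chromosome 4.2 (49300766 to 49302082, plus strand), reached 25.5, 17.7 and 22.9 FPKM in high Se, each on at least 211 read pairs. MSTRG.7326.1, antisense to MS.gene063265 on chromosome 1.1, had 28.6, 18.6 and 21.0 FPKM, each on 52.3 to 59.1 read pairs. Its 2 exons hold 282 bases of a span from 26140924 to 26231671, and the junction was not checked. The single-exon MSTRG.86040.1 on chromosome 4.4 varied more, with 12.7, 34.3 and 83.5 FPKM, as did MSTRG.10405.1 on chromosome 1.1 with 20.6, 18.8 and 43.2. These 4 were at 0 in every low Se library too. The remaining one, MSTRG.15485.1 on chromosome 1.2, had 4.998, 11.1 and 3.23 FPKM in high Se and was higher in low Se, with 13.4, 14.7 and 18.6. Their limma adjusted p lay between 0.045 and 0.0458. No fold change is given for these, as every control library was at 0. Such values add no spread to the test, and the pseudocount sets the size of the change, which limits these p-values.

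The other 3 that rose had faint traces in control. MSTRG.91813.1, within an intron of MS.gene47024 on chromosome 5.1 (69642576 to 69642990, minus strand), gave only 0.373, 0.0871 and 0 FPKM in control, on at most 1.40 read pairs. In high Se it had 419.6, 103 and 239 FPKM, on 1279, 449 and 877 read pairs. Every high Se library stood above every control library, and low Se 1, at 143 FPKM, lay inside the high Se range, with low Se 2 and low Se 3 between the groups at 16 and 14.6. On the log2(FPKM + 0.1) scale it rose by 10.04 ± 0.89 (SE; limma adjusted p = 0.000113). The junction-sharing MSTRG.15771.1 at MS.gene34399 had 0.0918, 1.21 and 0 FPKM in control versus 8.73, 22.0 and 22.3 at high Se (limma adjusted p = 0.0458). The intergenic MSTRG.124945.1 on chromosome 7.2 had 0.611, 0 and 0 in control versus 20.1, 18.0 and 92.4 at high Se (limma adjusted p = 0.045).

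The 2 that fell were strong in control. MSTRG.515.1, a single-exon intergenic transcript of 1112 bases on scaffold 15132 (67110 to 68221), had 121, 158 and 284 FPKM in control. In high Se it had 0.848, 0.149 and 0.102, on 6.92, 1.75 and 1 read pairs, and it was at 0 in low Se. On the log2(FPKM + 0.1) scale it changed by -8.92 ± 0.96 (SE; limma adjusted p = 0.00107). The sense-overlapping MSTRG.136627.1 at MS.gene055020 on chromosome 7.4, whose 3 exons of 350 bases in all lie between 37028538 and 37629718, gave 38.4, 16.3 and 7.25 FPKM in control versus 0.276, 0.476 and 0 at high Se (limma adjusted p = 0.0455). Low Se held 5.71, 11 and 22.3 FPKM of it, and its junctions were not checked.

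The number of calls depended strongly on the libraries. It was 30 without control 1 (21 rose, 9 fell), 3 without control 2, 1 without control 3, 1 without high Se 1, 3 without high Se 2 and 0 in limma without high Se 3, where 3422 had an unadjusted p below 0.05. It was 30, 5 and 21 without low Se 1, 2 and 3, and 38 with the 6 control and high Se libraries alone (32 rose, 6 fell), of which 7 were among the 10. MSTRG.91813.1 passed in 18 of 20 alternatives and MSTRG.515.1 in 16 of 20, while MSTRG.15485.1 and MSTRG.136627.1 each passed in 7.

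**Figure D4:**
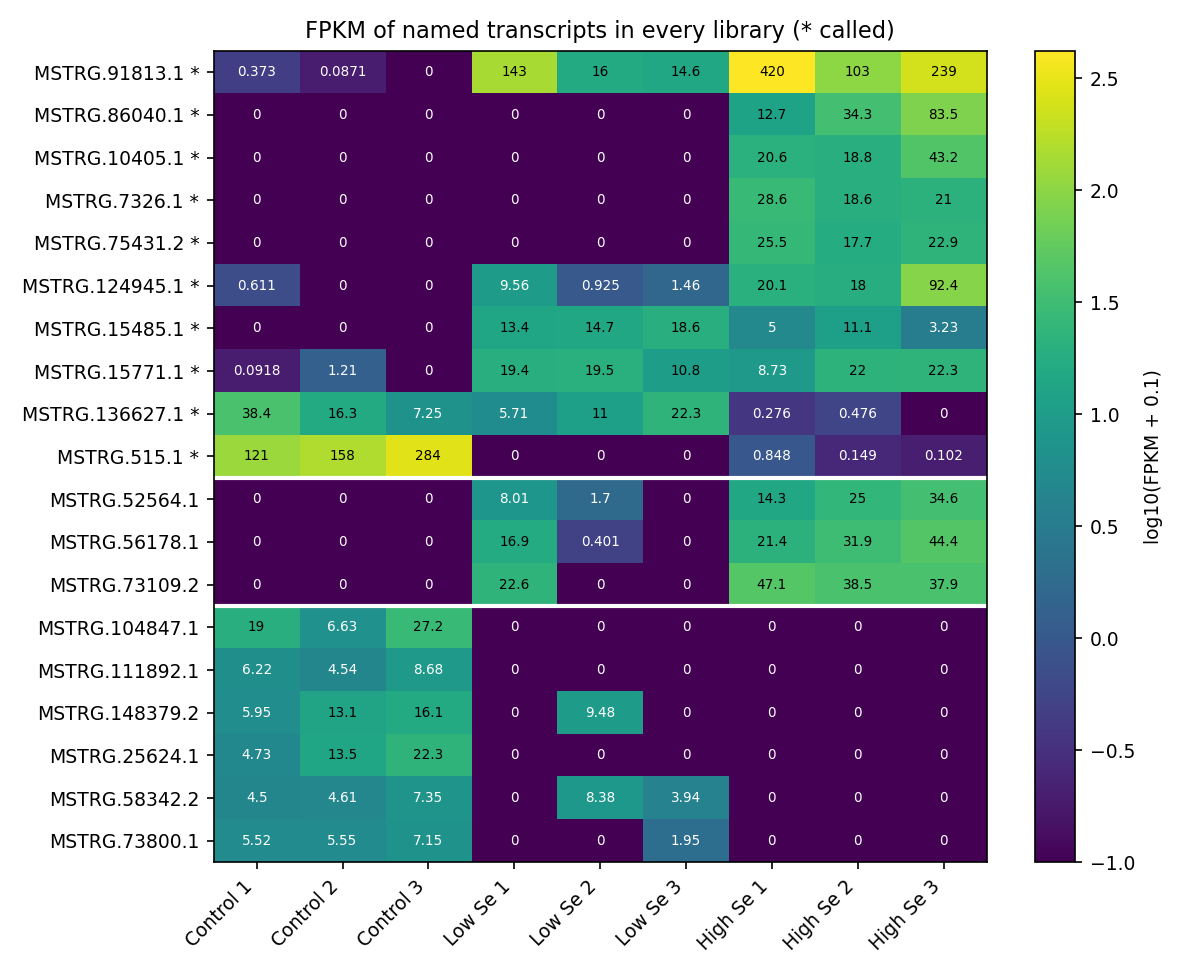
FPKM of the 10 called transcripts (marked with an asterisk), of 3 further newly detected and of 6 no longer detected transcripts, with the highest weakest value in the libraries that held them; columns are the 9 libraries, and colour is log10(FPKM + 0.1). White lines part the 3 sets. MSTRG.91813.1 reaches 419.6 FPKM in high Se 1, and all 6 transcripts of the lowest set are at 0 in every high Se library.

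Beyond the calls, the newly detected transcripts with the highest weakest value were MSTRG.73109.2, MSTRG.56178.1 and MSTRG.52564.1, all intergenic. MSTRG.73109.2, spliced, on chromosome 4.2 (16496081 to 16496455, minus strand), reached 47.2, 38.5 and 37.9 FPKM in high Se, which are close to each other. MSTRG.56178.1 on chromosome 3.3 had 21.5, 31.9 and 44.4, and MSTRG.52564.1 on chromosome 3.2 had 14.3, 25 and 34.6. All 3 were above 0 in low Se 1, with 22.6, 16.9 and 8.01 FPKM, and at 0 in low Se 3. They did not pass in the fit of all 9 libraries (limma adjusted p of 0.0718, 0.0606 and 0.0577). With the 6 control and high Se libraries alone, limma gave an adjusted p of 0.00146, 0.00387 and 0.00655. All 3 were chosen for values of 0 in every control library, which add no spread to either fit. Those p-values are therefore no independent support, and the pseudocount sets the size of the change. Each passed in 5 of 20 alternatives. At least 5 FPKM in each high Se library was reached by 27 newly detected transcripts, of which 20 were intergenic and 18 had a single exon. In low Se, 8 of the 27 were above 0 in no library and 2 in all 3. The same level in control was reached by 3 no longer detected transcripts.

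None of the 6 no longer detected transcripts with the highest weakest value passed in the fit of all 9 libraries. With the 6 control and high Se libraries alone, limma adjusted p was 0.0247 for MSTRG.104847.1 and 0.0405 for MSTRG.25624.1 and MSTRG.148379.2. It was 0.125 to 0.168 for the rest. These transcripts were chosen for high Se values of 0, which add no spread to either fit, so the p-values are no independent support. The values below are from the fit of all 9. MSTRG.104847.1, intergenic on chromosome 5.4 (62244435 to 62244759), had 19.0, 6.63 and 27.2 FPKM in control (limma adjusted p = 0.0718). MSTRG.148379.2, which shares a junction with MS.gene37014 on chromosome 8.2, had 5.95, 13.1 and 16.1 (0.221), and MSTRG.73800.1 on chromosome 4.2 had 5.52, 5.55 and 7.15 (0.265). MSTRG.111892.1 on chromosome 6.2 had 6.22, 4.54 and 8.68 FPKM (0.22), MSTRG.25624.1 on chromosome 1.4 had 4.73, 13.5 and 22.3 (0.111), and MSTRG.58342.2 at MS.gene70701 on chromosome 3.3 had 4.50, 4.61 and 7.35 (0.277). MSTRG.104847.1, MSTRG.111892.1 and MSTRG.25624.1 were also at 0 in every low Se library, while MSTRG.148379.2 and MSTRG.58342.2 had 9.48 and 8.38 FPKM in low Se 2.

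Changes of level were tested in the 9796 transcripts found in all 6 libraries, on log2 FPKM with nothing added and these 6 libraries alone. In limma 0 rose (0%) and 1 fell (0.0102%), and at an unadjusted p below 0.05 there were 816 (8.33%), 438 with higher (4.47%) and 378 with lower levels (3.86%) at high Se. Groups did not overlap for 791 transcripts that were higher (8.07%) and 650 that were lower (6.64%) in high Se. Higher transcripts thus outnumbered lower ones by a smaller margin here than among those that appeared or disappeared; the difference between these margins was not tested.

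**Figure D5:**
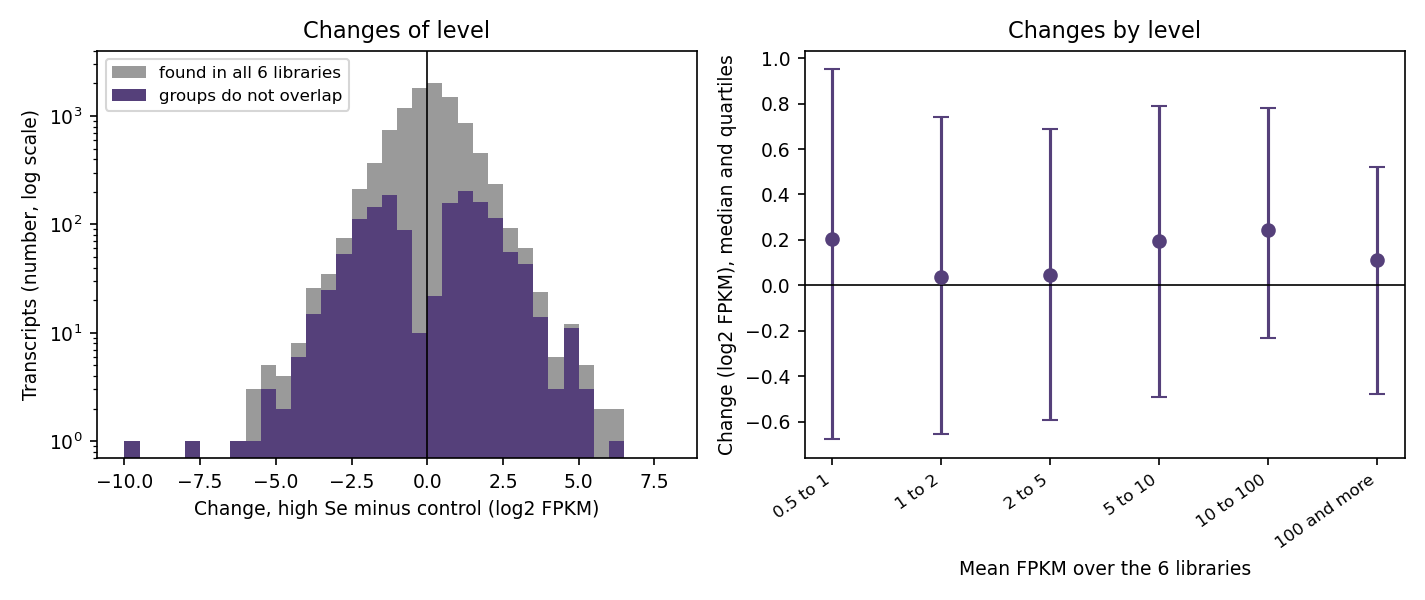
The left panel counts the 9796 transcripts found in all 6 libraries by their change in log2 FPKM, in grey, with those whose groups do not overlap in purple; the vertical axis is logarithmic. The right panel gives the median change and its quartiles by mean FPKM, where every interval between the quartiles spans 0.

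The median change of these transcripts was 0.10 in log2 FPKM, with quartiles of -0.58 and 0.73. It was 0.03 after median-of-ratios rescaling and 0.02 without control 3. Over all members the median was 0.26 on the log2(FPKM + 0.1) scale. A change above 1 was seen in 1752 transcripts (17.9%) and below -1 in 1488 (15.2%). By class the medians were 0.24 for sense-overlapping, 0.18 for junction-sharing, 0.16 for antisense, 0.11 for intergenic and 0.03 for intronic transcripts, the last turning to -0.04 after rescaling and -0.03 after quantile normalization. By level the medians were 0.20 at 0.5 to 1 FPKM, 0.04 at 1 to 2 and 0.05 at 2 to 5. They were 0.19 at 5 to 10 FPKM, 0.24 at 10 to 100 and 0.11 at 100 and more, without a steady order. Control libraries spread more than high Se ones: the median SD of log2 FPKM was 0.909 against 0.738, and 59.2% of the transcripts had the larger SD in control.

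The transcript that fell was MSTRG.515.1 again, with a change of -9.55 ± 0.80 (SE) in log2 FPKM (limma adjusted p = 0.00243). It passed in 13 of 14 alternatives and was lost without control 2 (limma adjusted p = 0.0788), when the count of calls was 0 and 784 had an unadjusted p below 0.05. Without control 1 there were 4 calls (1 rose, 3 fell), and without high Se 1 there were 2, and both fell. The next 5 by p with lower values in high Se did not pass. The intronic MSTRG.156684.1 in MS.gene65033 on chromosome 8.4 had 11, 7.96 and 9.11 FPKM in control versus 0.287, 0.115 and 0.506 at high Se (limma adjusted p = 0.128). The control values lay close together and the high Se values each rest on under 2 read pairs. MSTRG.46314.2, within an intron of MS.gene82748 on chromosome 3.1, had 2.59, 11.5 and 9.51 against 0.278, 0.204 and 0.104. The intergenic MSTRG.89405.1 on chromosome 5.1 was more abundant, with 102, 77.4 and 165 FPKM in control versus 2.32, 6.11 and 15.9 at high Se. MSTRG.94445.1 on chromosome 5.2 had 5.71, 7.70 and 11.5 against 0.529, 0.383 and 0.0512, and MSTRG.113896.1 on chromosome 6.3 had 4.35, 11.9 and 5.92 against 0.658, 0.385 and 0.551. These last 4 shared a limma adjusted p of 0.224.

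The 6 transcripts with the smallest p among those higher in high Se did not pass either. MSTRG.36675.1, a single-exon intergenic transcript of 1079 bases on chromosome 2.3 (12542599 to 12543677), was the most abundant of them, with 10.5, 74.8 and 42.9 FPKM in control versus 479.7, 486 and 316 at high Se. Low Se held 609.9, 324 and 215 FPKM of it, of which 1 library lay inside the high Se range, 1 above and 1 below it, and all above control. Its change was 3.70 ± 0.67 (SE) in log2 FPKM (limma adjusted p = 0.224), on at least 3011 read pairs in each high Se library. MSTRG.94399.1 on chromosome 5.2 had 0.256, 0.39 and 0.726 FPKM in control versus 15, 7.42 and 15.3 at high Se (limma adjusted p = 0.128). The sense-overlapping MSTRG.114408.1 at MS.gene80424 on chromosome 6.3 had 1.14, 0.515 and 1.35 in control, 7.62, 16.4 and 14.2 in high Se and 15.5, 11.8 and 7.81 in low Se. Its 2 exons hold 378 bases of a span of 77635 bases, and the junction was not checked. MSTRG.158087.1 on chromosome 8.4 had 0.428, 1.88 and 6.03 FPKM in control versus 60.7, 38.2 and 62.9 at high Se, while low Se held 7.64, 2.72 and 2.06. MSTRG.110761.1 on chromosome 6.2 had 2.24, 0.858 and 1.08 against 8.12, 18.9 and 23.4, and MSTRG.125616.1 on chromosome 7.2 had 0.166, 0.123 and 0.255 against 7.20, 2.41 and 5.98. These 4, like MSTRG.36675.1, had a limma adjusted p of 0.224.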

How the data were processed

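Per the labels' protocols, leaf RNA was depleted of ribosomal RNA and the second strand marked with dUTP. StringTie, HISAT2, Bowtie2 and edgeR are listed, without their roles, in the submitters' processing notes. The genome build is not given in the sources used here. The deposited table holds the authors' FPKM and, as signal, the coverage averaged along each transcript without depth scaling, with 0.0001 in place of 0, which was set back to 0. The deposited scores CPC and CNCI give coding potential and were not analysed further here. It holds no counts, so no count test or counting interval is given. Read pairs were estimated as coverage times length over 282 bases, the commonest value of that product among those whole within 0.02 bases. Steps of a single read also occur, and bases shared between transcripts give fractions.

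Members averaged 0.5 FPKM or more in the 6 libraries. The main test was limma 3.58.1 (R 4.3.3) with a variance trend on log2(FPKM + 0.1), all 9 libraries in 1 fit, with Benjamini-Hochberg adjustment over all members and a threshold of 0.05. That scale understates changes of low values. Transcripts above 0 in all 6 libraries were tested on log2 FPKM with these libraries alone. Both tests were tested on simulated data. Values per library were compared by an exact permutation test, two-sided. The members and lists were chosen with earlier results of these data known. Named transcripts were all calls, the 6 newly and 6 no longer detected with the highest weakest value, the 6 higher and 6 lower with the smallest p that were found in all 6 and did not overlap, the smallest p in classes i, j, o and x, and the 2 leading hosts and runs of each kind. Alternatives covered the pseudocount, filter, scaling, variance model, library weights, libraries in the fit, replicate block, detection threshold and each library left out, with the filter recomputed. Python 3.11.15, NumPy 2.4.6, pandas 2.3.3, SciPy 1.17.1 and matplotlib 3.10.9 were used.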

Additional observations from a re-analysis of the deposited data

How the results depend on the processing

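The count of 10 calls became 40 when the pseudocount was 1, 1 when it was 0.01, 47 unfiltered, 2 for transcripts averaging 2 FPKM or more, 6 with quantile normalization, 6 without the variance trend, 2 with array weights, 38 with 6 libraries only and 5 with the replicate block (4 rose, 1 fell). It stayed at 10 with the filter over all 9 libraries and with median-of-ratios rescaling, and ranged from 0 to 30 with 1 library left out. With a pseudocount of 1, 32 rose and 8 fell, and with quantile normalization 4 rose and 2 fell. Equal replicate numbers share only a number: the deviations of same-numbered control and high Se libraries correlated at -0.011, -0.00269 and -0.00391, and no control library correlated best with the high Se library of its own number. In the test of transcripts found in all 6, the 1 call remained 1 under the 8 other settings, the block included, and ranged from 0 to 4 with 1 library left out. Newly detected transcripts numbered 414 at 1 FPKM or more, 225 at 5 read pairs or more and 1650 to 2733 with 1 library left out, and no longer detected ones 142, 59 and 657 to 1113. Newly detected transcripts were the more numerous under each of these. The difference in detected transcripts per library was positive under all its alternatives (2097 to 4859, exact permutation p from 0.1 to 0.3), as was the median change (0.0886 to 0.53). Taken against each control library alone, the median change over all members had an SD of 0.417, larger than its main value of 0.264. The alternatives share libraries, so their signs are not independent. The named transcripts kept their direction in every alternative. They were chosen as calls, for absence from a group or for groups that did not overlap, so this was largely fixed by the choice. The causes of these differences were not tested. Depth is a limit: the median detected transcript rests on under 10 read pairs per library, so a listing of 0 does not show absence.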
